A study of Mus musculus with 9 samples.

Results

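Histone genes were followed through polyadenylated RNA of CD8-positive T cells sorted from mouse melanomas. A gene was taken by its name (a symbol of the H1, H2A, H2B, H3 or H4 families) and by at least 10 counts in at least 3 of the 9 libraries. Of 56860 genes in the table, 89 had such a name and 56 also met the count rule. Of these 56 genes, 46 are replication-linked, 8 are replacement genes and 2 are pseudogenes (H2bc26-ps and H3f3a-ps1). The 46 replication-linked genes are 5 of H1, 9 of H2A, 12 of H2B, 9 of H3 and 11 of H4, and 39 of them lie on chromosome 13, 4 on chromosome 3, 2 on chromosome 11 and 1 on chromosome 6. The 8 replacement genes are H3f3a, H3f3b, H2az1, H2az2, H2ax, H2aj, H1f0 and H1f10, which lie apart from the large cluster of chromosome 13, H2aj close to H4c16 on chromosome 6. The other names with too few counts were 21 replication-linked genes, 5 replacement genes, 6 pseudogenes and 1 antisense gene (H3f3aos).

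The cells were sorted by surface α2,6-linked sialoglycan and by PD-1, the inhibitory receptor of activated T cells, into 3 groups of 3 libraries. Sia_lo cells (Sia2,6loPD-1+CD8+) had low sialoglycan and carried PD-1, PD1_hi cells (Sia2,6hiPD-1+CD8+) had high sialoglycan and carried PD-1, and PD1_low cells (Sia2,6hiPD-1−CD8+) had high sialoglycan and are PD-1-negative by the sample titles, though the count table calls them low. RNA of the FACS-sorted cells was taken up in TRIzol, selected on poly-T beads and sequenced in pairs on a NovaSeq. All mice were wild type and untreated, no age is stated, and the tumour is labelled B16-OVA, a B16 melanoma that expresses ovalbumin, while the series description names B16F10. Nothing in the labels says that the replicates came from separate animals, so the p-values rest on the scatter of the 3 libraries in a group, and this scatter may be technical.

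Histones pack DNA into nucleosomes, each built of H2A, H2B, H3 and H4, with H1 bound to the linker between them. Replication-linked genes lie in clusters, have no introns and are transcribed mainly in S phase, when new chromatin must be assembled on copied DNA. Their mRNAs end just after a short stem-loop that SLBP binds, in place of a poly(A) tail, though some are also known to make polyadenylated forms. Replacement genes lie outside the clusters, make polyadenylated mRNA and are expressed through and outside the cell cycle, and their products enter chromatin without replication. CD8 T cells divide quickly after they meet antigen. Since the libraries were made from poly-A RNA, the counts of a replication-linked gene are those of the molecules that this selection retained and not of all its mRNA.

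The stem-loop was looked for in the gene models of GENCODE vM21 (mouse build GRCm38), to which 55 of the 56 genes were matched. In these genes only the bases from the stop codon on were searched, with a 16-base pattern that allowed more than 1 base at some positions. The stem-loop was found in 30 of the 46 replication-linked genes and in 1 replacement gene, H2ax. Over the whole annotation, whole transcripts were searched with this pattern, so that share is not directly comparable. There 61 of 55341 genes (0.11%) held the stem-loop, 43 of them among the 91 with a histone name. The 8 replication-linked models that end at the stop codon cannot show it. The stem-loops below belong to genes whose levels are described later. They are shown to let their stems be compared, from the model's DNA letters, 5′ to 3′, with the 16 bases of the stem-loop in capitals and up to 5 flanking bases on either side.
H1f2: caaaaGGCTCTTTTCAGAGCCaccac
H2ac25: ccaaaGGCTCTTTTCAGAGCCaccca
H2ac11: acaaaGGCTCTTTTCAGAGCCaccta
H2bc14: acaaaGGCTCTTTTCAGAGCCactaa
H2bc12: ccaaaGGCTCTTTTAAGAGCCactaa
H3c7: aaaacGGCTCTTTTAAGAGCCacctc
H4c16: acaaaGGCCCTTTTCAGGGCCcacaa
H4c11: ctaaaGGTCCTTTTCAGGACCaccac
H2ax: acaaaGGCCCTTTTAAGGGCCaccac
One stem-loop, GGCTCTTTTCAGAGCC, was shared by 17 replication-linked genes, and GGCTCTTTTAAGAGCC, with another loop base, by 5. The form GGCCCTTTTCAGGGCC was found in 7 genes, all of H4, and the form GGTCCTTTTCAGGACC in 1 more H4 gene, H4c11. H2ax, which is known to give both a stem-loop and a polyadenylated mRNA, had a form of its own, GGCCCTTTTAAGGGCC.

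Levels below are CPM, that is, counts relative to library totals after scaling by TMM factors, and levels between genes are compared only per kilobase of the gene model (RPKM from the same scaled counts). The libraries held 9714020 to 15030442 counts, so that 1 read was worth 0.0671 to 0.0982 CPM. Of 15292 genes tested, 0.575% to 4.17% were at 0 in a Sia_lo or PD1_hi library, against 6.14% to 6.98% in a PD1_low library. The sorted cells were checked against markers. The 10 T cell core genes (Cd3, Trac, Trbc, Cd247, Lck and Cd8 chains) summed to 6370 to 7170 CPM in Sia_lo, 5640 to 7320 CPM in PD1_hi and 1610 to 1750 CPM in PD1_low, and all 10 were higher in both PD-1-positive groups than in PD1_low. The 9 dendritic cell and MHC class II markers summed to 1750 to 2190, 2840 to 5180 and 17700 to 20100 CPM in Sia_lo, PD1_hi and PD1_low, and the 7 melanoma markers to 1560 to 3110, 794 to 913 and 3710 to 7850 CPM. All 9 and all 7 were lower in both PD-1-positive groups than in PD1_low, as were all 7 macrophage and monocyte markers. Ranges of the macrophage and monocyte sum were 982 to 1250, 1150 to 2210 and 2860 to 3640 CPM. The 7 B and plasma cell markers summed to 107 to 109, 235 to 323 and 518 to 895 CPM, and of the 4 tested 3 were lower in Sia_lo and 2 in PD1_hi than in PD1_low. The 5 CD4 and regulatory T cell markers summed to 857 to 886, 1000 to 1060 and 456 to 596 CPM. Of these markers 2 were higher and 3 lower in Sia_lo, and 3 higher and 1 lower in PD1_hi, than in PD1_low. Ctla4 held most of this sum (70211 counts over the 9 libraries, with Cd4 next at 13569). The median log2 fold change of the list was -2.14 in Sia_lo and 1.19 in PD1_hi. No listed marker was at 0 over the 9 libraries. Every comparison with PD1_low below goes with these values, and their part in the histone results was not tested. In bulk samples, fewer cells of a type and less RNA per cell cannot be told apart.

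Between the 2 PD-1-positive groups, no histone gene passed the test. Of 55 genes tested (H2bc15 fell under edgeR's filter), 0 were called in Sia_lo against PD1_hi at an adjusted p under 0.05 (edgeR's quasi-likelihood test with Benjamini-Hochberg adjustment over all tested genes), where 1.4% of all tested genes were called (0.268% higher and 1.13% lower). At an unadjusted p under 0.05 there were 0 as well, and DESeq2 and limma-voom gave 0 at either limit. The lowest adjusted p of a histone gene was 0.745 by edgeR. For the 10 genes at 20 CPM or more in both groups, the log2 fold changes lay between -0.23 and 0.06 and the outer bounds of their 95% intervals were -1.03 and 0.87. For the other 45 genes the intervals reached from -4.56 to 5.50, so that larger differences could not be seen there at this depth. Some markers did differ between these groups. In Sia_lo against PD1_hi, 7 of 9 dendritic cell and MHC class II, 3 of 5 CD4 and regulatory T and 2 of 4 B and plasma cell markers were lower. Of 7 melanoma markers 3 were higher, and no T cell core or macrophage and monocyte marker was called. Their part in the histone comparison was not tested. With no histone gene called between them, these 2 groups are given side by side in what follows, each against PD1_low. The 2 comparisons with PD1_low share their PD1_low libraries and are not independent.

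Against PD1_low, 15 histone genes were higher and 5 lower in Sia_lo, and 15 were higher and 6 lower in PD1_hi, of 55 tested. In Sia_lo these are 27.3% higher and 9.09% lower, where 20.5% of all tested genes were called higher and 18.9% lower. In PD1_hi they are 27.3% and 10.9%, where 21% of all tested genes were called higher and 19.2% lower. In both directions together, 36.4% of the histone genes were called in Sia_lo and 38.2% in PD1_hi, close to the 39.4% and 40.2% of all tested genes, so the number of calls is not a result about histone genes. When libraries were scaled to the 10 T cell core genes, the median of all tested genes shifted by -1.99 in Sia_lo and -1.86 in PD1_hi on the log2 scale. The split of histone genes was then 6 higher and 19 lower in Sia_lo and 6 higher and 20 lower in PD1_hi, of 55 tested. Of all 15292 tested genes, 281 were then higher and 12531 lower in Sia_lo, and 284 higher and 12315 lower in PD1_hi. Directions below are on the TMM scale, which sets the median of all genes near 0 (0.01 in Sia_lo and 0.02 in PD1_hi).

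**Figure D1:**
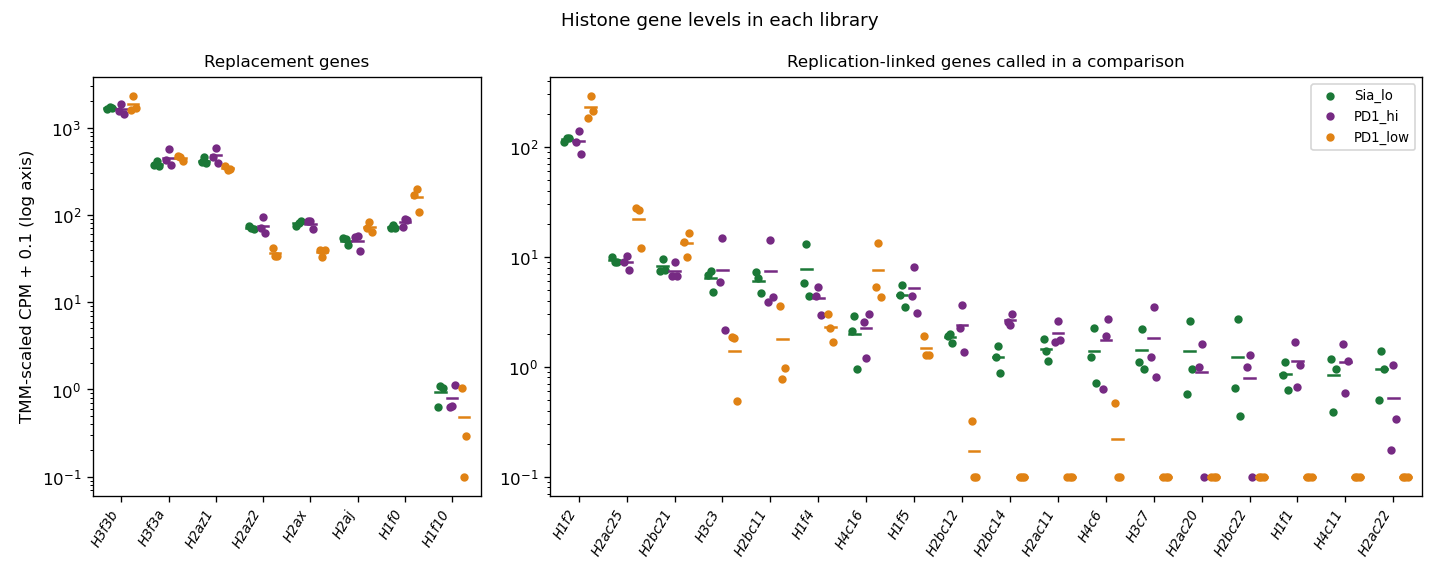
Levels of the 8 replacement genes (left) and of the 18 replication-linked genes called in a comparison (right) in each library, as TMM-scaled CPM plus 0.1 on a log axis. Points are libraries and bars are means of 3, and 8 genes on the right lie at the lowest line in all PD1_low libraries because they had 0 counts there.

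Among replacement genes, the pair that encodes the H3 variant H3.3 took most histone reads. H3f3b was at 1640, 1720 and 1690 CPM in Sia_lo, 1540, 1880 and 1440 CPM in PD1_hi and 1580, 2290 and 1700 CPM in PD1_low, and alone held 50.1% to 59.3% of all reads of the 56 genes in every library. H3f3a, the other gene of the pair, was at 378, 413 and 367 CPM in Sia_lo, 421, 570 and 371 CPM in PD1_hi and 479, 459 and 417 CPM in PD1_low. All 3 Sia_lo libraries were below all 3 PD1_low libraries for H3f3a, the groups overlapped otherwise, and neither gene was called in any comparison. Per length, H3f3b was 79.5% to 85.5% of the pair together, and the groups overlapped.

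H2az1 and H2az2 encode H2A.Z, a variant found at promoters and enhancers. H2az1 was at 405, 455 and 391 CPM in Sia_lo, 465, 586 and 396 CPM in PD1_hi and 360, 327 and 336 CPM in PD1_low. All PD-1-positive libraries were above all PD1_low libraries. The gene passed the test in PD1_hi (1.42-fold higher, log2 fold change 0.50 ± 0.15 SE, adjusted p = 0.0137) and did not in Sia_lo (log2 0.29 ± 0.14 SE, adjusted p = 0.129), and the difference between these groups was not called. H2az2 was at 73.6, 71.4 and 68.3 CPM in Sia_lo, 70.2, 94.3 and 61.7 CPM in PD1_hi and 42.2, 33.8 and 33.4 CPM in PD1_low. The gene was 1.95-fold higher in Sia_lo (log2 0.96 ± 0.17 SE, adjusted p = 0.000637) and 2.07-fold higher in PD1_hi (log2 1.05 ± 0.17 SE, adjusted p = 0.000344), with no overlap. With T cell core scaling, H2az2 in both comparisons and H2az1 in PD1_hi were lower.

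H2ax encodes the variant whose phosphorylation marks broken DNA. It was at 73.8, 80.5 and 84.8 CPM in Sia_lo, 84.4, 84.2 and 68.1 CPM in PD1_hi and 39.2, 32.8 and 39.4 CPM in PD1_low. All 6 PD-1-positive libraries stood above all 3 PD1_low libraries. The fold was 2.15 in Sia_lo (log2 1.10 ± 0.15 SE, adjusted p = 5.29e-05) and 2.13 in PD1_hi (log2 1.09 ± 0.15 SE, adjusted p = 6.62e-05), the smallest adjusted p of a histone gene in each comparison. It turned lower in both with T cell core scaling.

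H2aj, the gene of H2A.J, a variant known to gather in senescent cells, went the other way. It was at 53.8, 52.4 and 45.6 CPM in Sia_lo, 56.4, 57.1 and 38.2 CPM in PD1_hi and 71.3, 83.7 and 64.3 CPM in PD1_low, and the PD1_low libraries were all above the others. The log2 fold change was -0.53 ± 0.18 SE in both (adjusted p = 0.029 in Sia_lo and 0.028 in PD1_hi). The call in Sia_lo ended without any 1 of its libraries or PD1_low replicate 1 or 2 (adjusted p 0.0631 to 0.156), and that in PD1_hi without any 1 Sia_lo library, PD1_hi replicate 3 or PD1_low replicate 1 or 2 (0.0515 to 0.124).

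Shares within the 4 replacement H2A genes do not depend on how libraries are scaled. Per length, H2ax held 15.0%, 15.0% and 17.6% in Sia_lo, 15.4%, 12.7% and 14.9% in PD1_hi and 9.57%, 8.65% and 10.4% in PD1_low. H2aj held 8.26%, 7.39% and 7.15% in Sia_lo, 7.76%, 6.50% and 6.30% in PD1_hi and 13.2%, 16.7% and 12.9% in PD1_low. The ratio of H2ax to H2aj was 1.82 to 2.46 in Sia_lo, 1.95 to 2.36 in PD1_hi and 0.518 to 0.810 in PD1_low, so that H2ax was the higher of the pair in the 6 PD-1-positive libraries and the lower in the 3 PD1_low libraries. H2az2 held 11.3% to 12.7% in Sia_lo, 10.8% to 12% in PD1_hi and 7.49% to 8.73% in PD1_low. H2az1 held the most in each library, 63.2% to 66.3% in Sia_lo, 66.0% to 68.8% in PD1_hi and 67.1% to 69.2% in PD1_low.

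**Figure D2:**
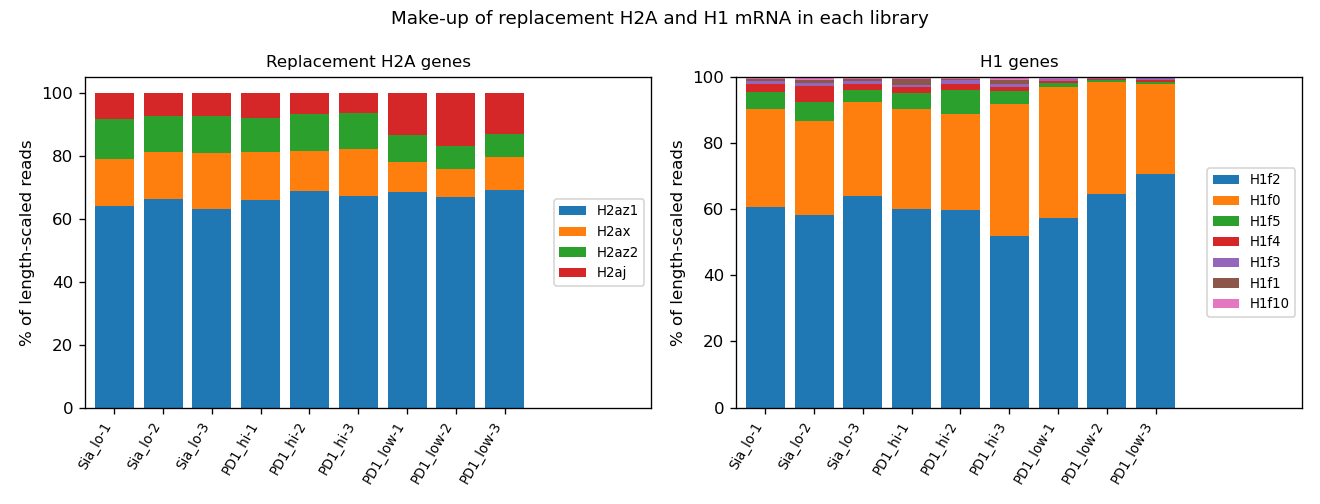
Share of each gene in the length-scaled reads of the 4 replacement H2A genes (left) and of the 7 H1 genes (right), in percent, in each library. The H2aj share is 6.30% to 8.26% in the Sia_lo and PD1_hi libraries and 12.9% to 16.7% in PD1_low, and H1f2 and H1f0 together fill most of the H1 bars in all 9.

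H1f0 encodes H1.0, a replacement linker histone known to build up in cells that have stopped dividing. It was at 71.5, 76.8 and 70.8 CPM in Sia_lo, 72.8, 90.4 and 87.9 CPM in PD1_hi and 167, 200 and 108 CPM in PD1_low, with no overlap. It was 2.17-fold lower in Sia_lo (log2 -1.12 ± 0.19 SE, adjusted p = 0.000409) and 1.89-fold lower in PD1_hi (log2 -0.92 ± 0.19 SE, adjusted p = 0.00171). The length-scaled ratio of H2ax to H1f0 was 1.53 to 1.78 in Sia_lo, 1.15 to 1.72 in PD1_hi and 0.243 to 0.541 in PD1_low, so the 2 genes changed order between the PD-1-positive and the PD1_low libraries. H1f10, the other replacement linker histone, averaged 0.833, 0.699 and 0.381 CPM in Sia_lo, PD1_hi and PD1_low, and was not called.

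H1f2 had the highest length-scaled level of the replication-linked genes, and it fell with H1f0. It encodes H1.2, a linker histone of most body cells. Its levels were 111, 120 and 121 CPM in Sia_lo, 110, 140 and 86.7 CPM in PD1_hi and 184, 289 and 212 CPM in PD1_low, with every PD1_low library above the rest. It was 1.95-fold lower in Sia_lo (log2 -0.96 ± 0.19 SE, adjusted p = 0.00117) and 2.03-fold lower in PD1_hi (log2 -1.02 ± 0.19 SE, adjusted p = 0.000754). Among all replication-linked reads, H1f2 took 36.7% to 45.5% in Sia_lo, 36.2% to 40.7% in PD1_hi and 55.0% to 66.1% in PD1_low. Its model runs 880 bases past the stop codon, with the stem-loop 24 bases after it.

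The other linker genes of the cluster moved up or were not called. H1f5, the gene of H1.5, was at 4.36, 5.42 and 3.37 CPM in Sia_lo, 4.27, 8.03 and 2.99 CPM in PD1_hi and 1.82, 1.19 and 1.18 CPM in PD1_low. It was 3.11-fold higher in Sia_lo (log2 1.64 ± 0.54 SE, adjusted p = 0.0271) and 3.62-fold higher in PD1_hi (log2 1.85 ± 0.54 SE, adjusted p = 0.0144). Leaving out Sia_lo replicate 1 or 2 gave adjusted p = 0.0789 and 0.0999 for Sia_lo, and leaving out PD1_hi replicate 2 gave 0.0917 for PD1_hi. H1f4, the gene of H1.4, was at 5.63, 12.9 and 4.32 CPM in Sia_lo, 4.27, 5.20 and 2.83 CPM in PD1_hi and 2.91, 2.16 and 1.57 CPM in PD1_low. It was called in Sia_lo (3.42-fold higher, log2 1.77 ± 0.52 SE, adjusted p = 0.0154), where replicate 2 stood far above the others. Without that library the adjusted p was 0.148, and the model of H1f4 overlaps that of H2bc6, so their reads may not be told apart. H1f3 averaged 6.87, 8.50 and 10.1 CPM in Sia_lo, PD1_hi and PD1_low and was not called. With T cell core scaling, H1f5 in both comparisons and H1f4 in Sia_lo had log2 fold changes below 0. H1f1 had 0 counts in PD1_low and is described with the genes that share this.

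Within the length-scaled reads of the 7 H1 genes, H1f2 held the most in every library, 58.4% to 64.0% in Sia_lo, 52.0% to 60.1% in PD1_hi and 57.4% to 70.6% in PD1_low. H1f0 held 28.5% to 29.7%, 29.3% to 40.0% and 27.3% to 39.7% in the same order of groups. The groups overlapped for both. H1f5 held 5.01%, 5.55% and 3.75% in Sia_lo, 4.90%, 7.20% and 3.77% in PD1_hi and 1.20%, 0.56% and 0.824% in PD1_low, and each of the 6 PD-1-positive libraries was above each PD1_low library. The same was so for H1f4, with 1.85% to 5.10% in Sia_lo, 1.37% to 1.89% in PD1_hi and 0.391% to 0.737% in PD1_low.

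Next to H1f2, the replication-linked genes with the highest length-scaled levels were H2bc4 and H4c9, and neither was called. H2bc4 was at 30.2, 29.4 and 30.6 CPM in Sia_lo, 27.5, 37.8 and 25.4 CPM in PD1_hi and 39.0, 32.6 and 38.4 CPM in PD1_low. H4c9 was at 17.3, 27.7 and 15.5 CPM in Sia_lo, 23.7, 30.1 and 10.2 CPM in PD1_hi and 15.8, 13.1 and 4.42 CPM in PD1_low. For H2bc4 all Sia_lo libraries were below all PD1_low libraries, and the other comparisons with PD1_low overlapped.

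Core histone genes that fell were few, and all of them lie outside chromosome 13. H2ac25, an H2A gene of chromosome 11 formerly called Hist3h2a, was at 9.92, 8.88 and 8.91 CPM in Sia_lo, 8.83, 10.1 and 7.48 CPM in PD1_hi and 27.8, 26.8 and 11.9 CPM in PD1_low. It was 2.40-fold lower in Sia_lo (log2 -1.26 ± 0.31 SE, adjusted p = 0.00588) and 2.52-fold lower in PD1_hi (log2 -1.34 ± 0.31 SE, adjusted p = 0.00412). H4c16, an H4 gene of chromosome 6 formerly called Hist4h4, was at 2.01, 2.82 and 0.865 CPM in Sia_lo, 2.47, 1.10 and 2.91 CPM in PD1_hi and 5.17, 13.2 and 4.22 CPM in PD1_low. It was 3.94-fold lower in Sia_lo (log2 -1.98 ± 0.63 SE, adjusted p = 0.0232) and 3.48-fold lower in PD1_hi (log2 -1.80 ± 0.63 SE, adjusted p = 0.0344), and PD1_low replicate 2 was the highest by far. Without it the adjusted p was 0.14 for Sia_lo and 0.199 for PD1_hi. The call in Sia_lo also ended without Sia_lo replicate 1 or 3 (0.072 and 0.101), and that in PD1_hi without Sia_lo replicate 1 (0.0525) or PD1_hi replicate 1 or 2 (0.0823 and 0.111). H2bc21, an H2B gene of chromosome 3, was at 7.38, 9.53 and 7.44 CPM in Sia_lo, 6.59, 8.90 and 6.53 CPM in PD1_hi and 13.6, 9.92 and 16.3 CPM in PD1_low. It was called in PD1_hi (log2 -0.85 ± 0.30 SE, adjusted p = 0.0371) and not in Sia_lo (log2 -0.71 ± 0.30 SE, adjusted p = 0.0782). Its call ended without any 1 library other than PD1_hi replicate 2 and PD1_low replicate 2 (adjusted p 0.0632 to 0.135).

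Core histone genes called higher in Sia_lo or PD1_hi that also had counts in PD1_low were H3c3, H2bc11, H2bc12 and H4c6, of which H2bc12 and H4c6 had no PD1_low library with 10 counts. H3c3, an H3 gene, was at 6.77, 7.37 and 4.67 CPM in Sia_lo, 5.84, 14.7 and 2.05 CPM in PD1_hi and 1.75, 1.72 and 0.393 CPM in PD1_low. It was 4.78-fold higher in Sia_lo (log2 2.26 ± 0.69 SE, adjusted p = 0.0193) and 5.73-fold higher in PD1_hi (log2 2.52 ± 0.70 SE, adjusted p = 0.0108). Without Sia_lo replicate 2 or PD1_low replicate 3 the adjusted p for Sia_lo was 0.0534 and 0.0503, and without PD1_hi replicate 2 it was 0.0841 for PD1_hi. H2bc11, an H2B gene, was at 7.11, 6.28 and 4.58 CPM in Sia_lo, 3.82, 14.2 and 4.17 CPM in PD1_hi and 3.50, 0.671 and 0.884 CPM in PD1_low. It was 3.51-fold higher in Sia_lo (adjusted p = 0.0476) and 4.34-fold higher in PD1_hi (adjusted p = 0.0237), with PD1_hi replicate 2 the highest library. The call in Sia_lo ended without any 1 of its libraries or PD1_low replicate 2 or 3 (adjusted p 0.0541 to 0.118), and that in PD1_hi without PD1_hi replicate 2 or PD1_low replicate 2 or 3 (0.0648 to 0.178). With T cell core scaling, the log2 fold change of H2bc11 in Sia_lo was below 0. By limma-voom, the calls of H3c3 and H2bc11 were lost in both comparisons (adjusted p 0.056 to 0.0932).

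H2bc12, an H2B gene, had 3 counts in all of PD1_low. Like H4c6, it met the count rule only through the PD-1-positive libraries and so had to differ, and the tests of both are given as a description. It was at 1.81, 1.88 and 1.56 CPM in Sia_lo, 2.17, 3.54 and 1.26 CPM in PD1_hi and 0.219, 0 and 0 CPM in PD1_low. The ratio of scaled counts was 21.9 in Sia_lo (95% counting interval 7.19 to 109) and 28.9 in PD1_hi (9.57 to 143), with adjusted p = 0.0107 and 0.00643 by edgeR. H4c6, with 5 counts in PD1_low, was at 1.14, 2.17 and 0.605 CPM in Sia_lo, 0.524, 1.81 and 2.60 CPM in PD1_hi and 0.364, 0 and 0 CPM in PD1_low. It passed narrowly in PD1_hi (adjusted p = 0.0485) and not in Sia_lo (adjusted p = 0.07). Its call ended without any 1 library other than PD1_low replicate 1 (adjusted p 0.0639 to 0.141).

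**Figure D3:**
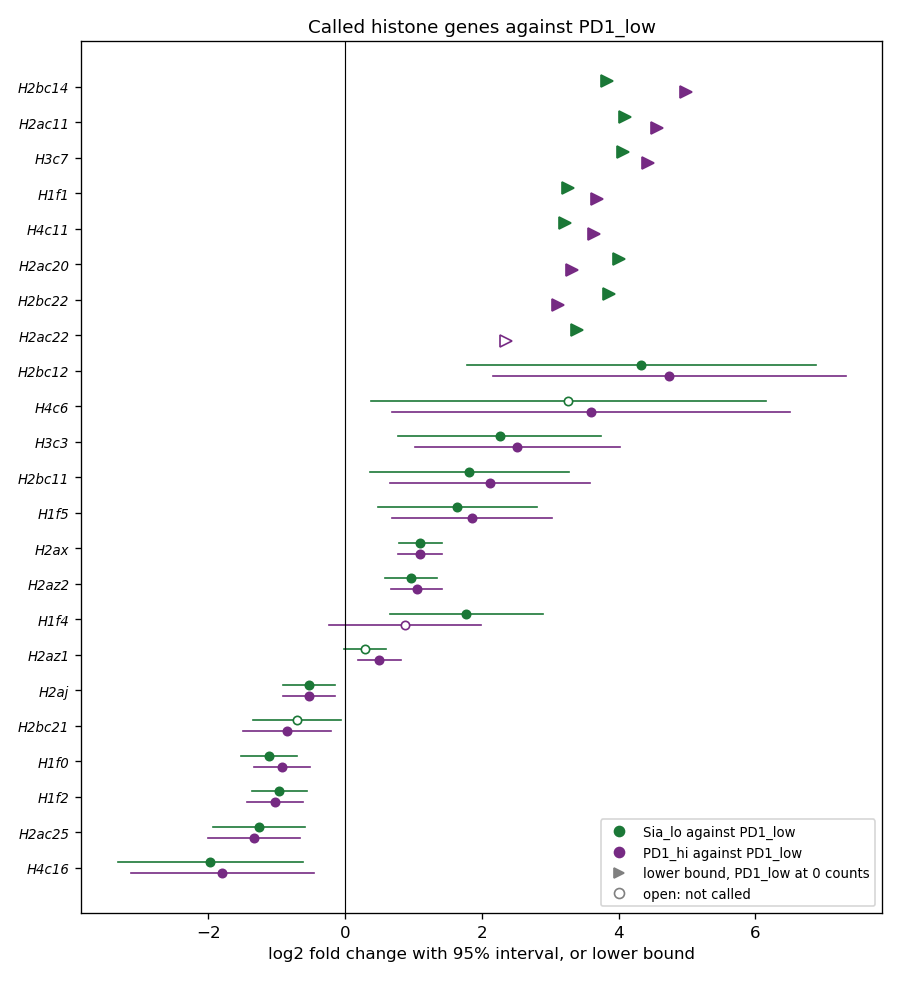
Log2 fold changes of the 23 histone genes called in Sia_lo against PD1_low (upper mark of each gene) or in PD1_hi against PD1_low (lower mark), with 95% intervals of the fit. Triangles are lower bounds for the 8 genes with 0 counts in PD1_low, and open marks did not pass the test. Called the same way in both comparisons were 18 genes, but the comparisons share their PD1_low libraries. The 8 genes at 0 in PD1_low, H2bc12 and H4c6 met the count rule only through PD-1-positive libraries and so had to differ.

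Another 8 replication-linked genes had 0 counts in all 3 PD1_low libraries and were called higher in 1 or both comparisons, namely H1f1, H2ac11, H2ac20, H2ac22, H2bc14, H2bc22, H3c7 and H4c11. Of all 15292 tested genes, 62 (0.405%) were at 0 in every Sia_lo library, 24 (0.157%) in every PD1_hi library and 239 (1.56%) in every PD1_low library. Of the 46 replication-linked genes, 0 were at 0 in every library of Sia_lo or of PD1_hi and 8 in every PD1_low library. Such genes met the count rule only through the PD-1-positive libraries and so had to differ, and their number is given as a description. Of the 13 replication-linked genes called higher in Sia_lo and the 12 in PD1_hi, 9 in each had no PD1_low library with 10 counts.

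A fold against 0 counts is a lower bound, taken against 3 counts over the 3 PD1_low libraries (0.0804 CPM). H2bc14, an H2B gene, was at 1.14, 1.44 and 0.778 CPM in Sia_lo and 2.47, 2.28 and 2.91 CPM in PD1_hi, so at least 14.2-fold higher in Sia_lo (adjusted p = 0.00266) and at least 31.8-fold higher in PD1_hi (adjusted p = 0.000929). All 3 PD1_hi libraries were above all 3 Sia_lo libraries for this gene, but the difference was not called. H2ac11, an H2A gene, was at 1.68, 1.30 and 1.04 CPM in Sia_lo and 1.57, 2.52 and 1.65 CPM in PD1_hi, so at least 17.0-fold (adjusted p = 0.00265) and at least 23.7-fold higher (adjusted p = 0.00168). H3c7, an H3 gene, was at 1.01, 2.09 and 0.865 CPM in Sia_lo and 1.12, 3.38 and 0.708 CPM in PD1_hi, so at least 16.7-fold (adjusted p = 0.00552) and at least 21.5-fold higher (adjusted p = 0.00392). Because these genes entered only through the libraries where they are high, their p-values are given as a description. Among genes with at least 10 counts in a PD1_low library, H1f0, H1f2, H2ac25, H2ax and H2az2 were called in both comparisons and kept the call whichever library was left out.

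H1f1, the gene of the linker histone H1.1, averaged 0.756 CPM in Sia_lo and 1.02 CPM in PD1_hi, so at least 9.56-fold (adjusted p = 0.0143) and at least 12.8-fold higher (adjusted p = 0.00977). Without Sia_lo replicate 2, its adjusted p in Sia_lo was 0.0526. H4c11, an H4 gene, averaged 0.742 and 0.997 CPM, so at least 9.25-fold (adjusted p = 0.0174) and at least 12.5-fold higher (adjusted p = 0.0121). The adjusted p was 0.0711 or 0.0549 in Sia_lo without its replicate 1 or 3, and 0.0521 in PD1_hi without its replicate 1. H2ac20 averaged 1.29 and 0.798 CPM and H2bc22 1.13 and 0.693 CPM, with 0 counts in PD1_hi replicate 3 for both. Both were called in Sia_lo (adjusted p = 0.0231 and 0.0309) and in PD1_hi (adjusted p = 0.0354 and 0.0477). The call of H2ac20 in Sia_lo rested on replicate 2 (adjusted p = 0.0929 without it), and its call in PD1_hi ended without any 1 library other than PD1_hi replicate 3 (0.0505 to 0.0905). The call of H2bc22 in Sia_lo ended without Sia_lo replicate 1 or 2, PD1_hi replicate 1 or any 1 PD1_low library (0.053 to 0.14), and that in PD1_hi without any 1 library other than PD1_hi replicate 3 (0.0605 to 0.104). H2ac22 had the fewest counts of any gene inside the count rule, with 6, 18 and 10 counts in Sia_lo, 1, 12 and 3 in PD1_hi and none in PD1_low. It was called in Sia_lo (adjusted p = 0.0257), where leaving out any 1 of its 3 libraries ended the call (adjusted p up to 0.0895), and not in PD1_hi (adjusted p = 0.0526).

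H2bc15, also just inside the rule, had 7, 4 and 1 counts in Sia_lo, 7, 15 and 10 in PD1_hi and 10, 0 and 1 in PD1_low. Just outside it lay H2bc7, with 6, 7 and 0 counts in Sia_lo, 3, 3 and 8 in PD1_hi and 0, 34 and 10 in PD1_low, and H2bc13, with 10, 5 and 9 counts in Sia_lo, 8, 3 and 0 in PD1_hi and 0 in each PD1_low library. The pseudogene H3f3a-ps1 averaged 1.75, 0.832 and 1.39 CPM in Sia_lo, PD1_hi and PD1_low, and H2bc26-ps 0.736, 0.202 and 0.899 CPM, with no call.

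The replication-linked genes differed by how far their gene models reach past the stop codon. For 22 genes the model ends within 100 bases of the stop codon, close to where the stem-loop sits, and for 24 it runs further, up to 4931 bases (H1f3). Of the 21 short-model genes tested, 8 were higher and 0 lower in Sia_lo, and 8 and 0 in PD1_hi, where 20.5% and 21% of all tested genes were called higher. Single libraries moved these counts. In Sia_lo 3 short-model genes were higher without Sia_lo replicate 2, 5 without Sia_lo replicate 1 and 12 without PD1_low replicate 1. In PD1_hi 4 were higher without PD1_hi replicate 2. With T cell core scaling 4 were higher in each comparison, beside 281 of all 15292 tested genes in Sia_lo and 284 in PD1_hi. Of the 24 with an extended model, 5 were higher and 3 lower in Sia_lo, and 4 and 4 in PD1_hi. Leaving out 1 library gave 2 to 6 higher and 2 to 3 lower in each comparison, with the fewest higher without Sia_lo replicate 2 in Sia_lo and without PD1_hi replicate 1 or 2 in PD1_hi. The median log2 fold change was 1.81 and 2.26 for short models and 0.53 and 0.41 for extended models in Sia_lo and PD1_hi, beside 0.01 and 0.02 for all tested genes, and putting the genes at 0 at their bounds left these medians as they were. This division was made after the values were known and is a description without a test. Of the genes at 0 in PD1_low, which had to differ, 5 had a short and 3 an extended model, so neither the counts nor the medians support more than this description.

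**Figure D4:**
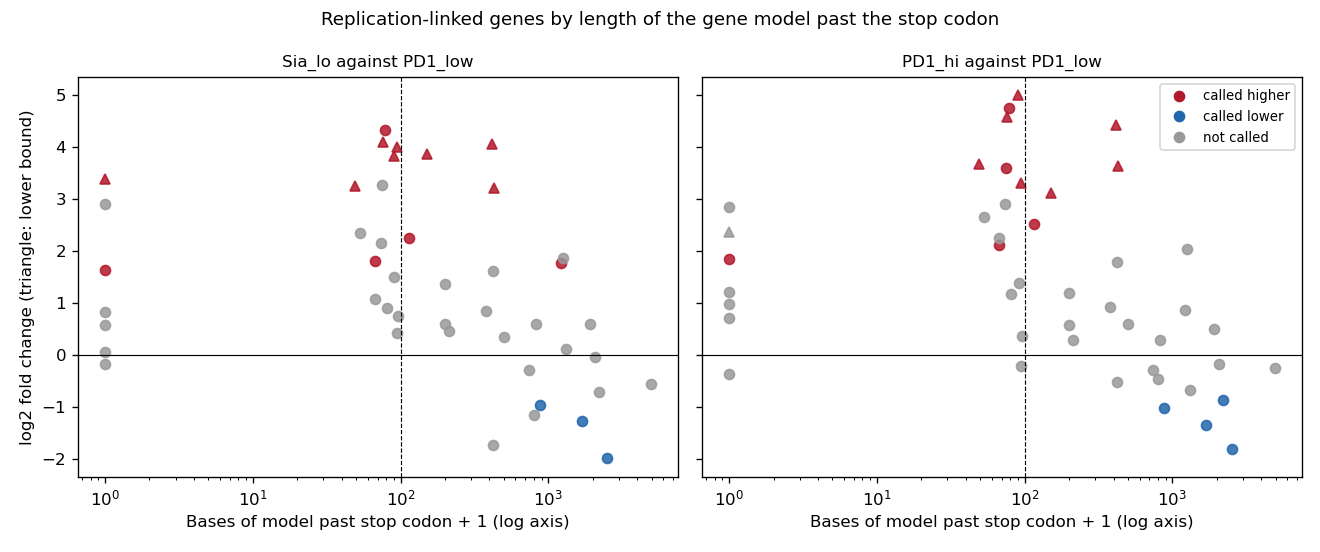
Log2 fold change of the 45 tested replication-linked genes in Sia_lo against PD1_low (left) and PD1_hi against PD1_low (right), by the bases of the gene model past the stop codon plus 1, on a log axis. Triangles are lower bounds for genes at 0 in PD1_low, the dashed line is 100 bases, and the 4 genes called lower in a comparison all lie to the right of it.

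Sums of both kinds of model are given by library, as a description under the same limits: the division was made with the values known, and the sums hold the 11 replication-linked genes with no PD1_low library at 10 counts. The 22 short-model genes summed to 40.1, 50.2 and 31.3 CPM in Sia_lo, 39.7, 66.4 and 39.7 CPM in PD1_hi and 14.4, 16.3 and 10.6 CPM in PD1_low. The 24 extended-model genes summed to 235, 276 and 234 CPM in Sia_lo, 230, 320 and 175 CPM in PD1_hi and 320, 421 and 335 CPM in PD1_low. The short sum was higher in all 6 PD-1-positive libraries than in any PD1_low library, but not when scaled to T cell core genes, where it was 20.4 to 29.1 in Sia_lo, 27.4 to 37.7 in PD1_hi and 27.3 to 38.7 in PD1_low. For the extended sum the highest PD1_hi library and the lowest PD1_low library were both at 320 CPM. As a share of replication-linked reads, which needs no library factor, short-model genes held 14.6%, 15.4% and 11.8% in Sia_lo, 14.7%, 17.2% and 18.5% in PD1_hi and 4.30%, 3.74% and 3.07% in PD1_low. All 46 replication-linked genes averaged 289 ± 32.9 CPM in Sia_lo, 290 ± 87.4 CPM in PD1_hi and 372 ± 56.4 CPM in PD1_low (SD, n = 3 each). Without H1f2, the sums were 164, 207 and 144 CPM in Sia_lo, 160, 246 and 128 CPM in PD1_hi and 150, 148 and 134 CPM in PD1_low, and the groups overlapped. The 8 replacement genes averaged 2760 ± 95.6, 2840 ± 463 and 2960 ± 410 CPM in the same order of groups (SD, n = 3 each), and the replication-linked genes made up 8.01% to 11.4% of histone reads in all libraries.

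**Figure D5:**
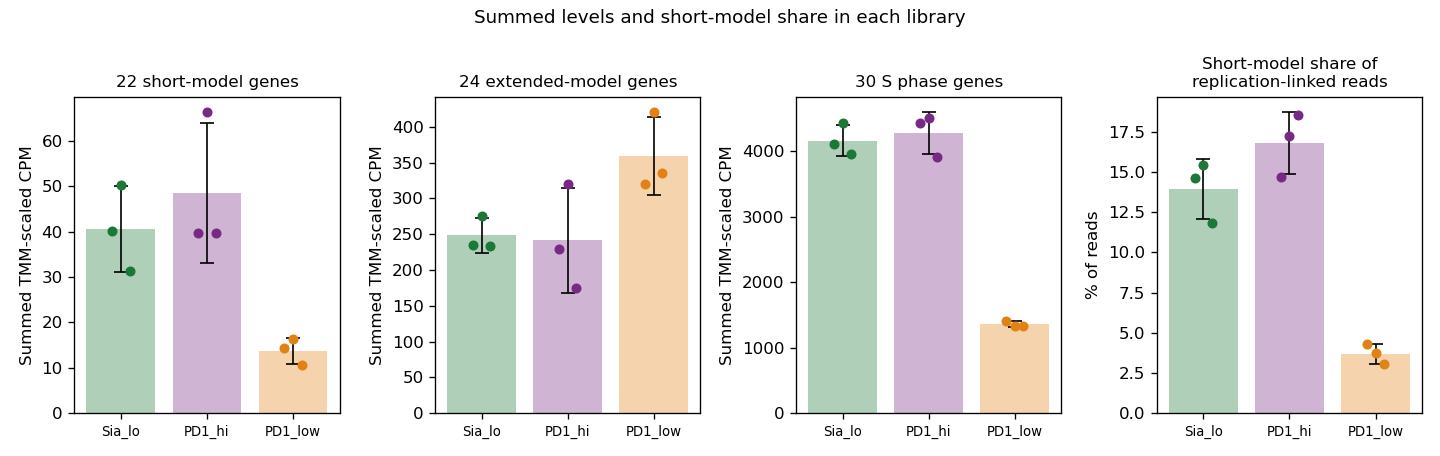
Summed CPM of the 22 short-model and 24 extended-model replication-linked genes and of 30 S phase genes, and the share of replication-linked reads in short-model genes, by group. Points are libraries, bars are means and whiskers are 1 SD of 3, and the sums hold genes that met the count rule only through Sia_lo and PD1_hi libraries. Scaled to T cell core genes, the short-model and S phase sums were not higher in Sia_lo and PD1_hi. The short-model share is 11.8% to 18.5% in Sia_lo and PD1_hi and 3.07% to 4.30% in PD1_low.

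Calls of neighbouring genes are given as a description. Among the 56 genes, 8 pairs stand head to head within 1000 bases, with 175 to 659 bases between their models. H2ac11 and H2bc11 were both higher in both comparisons, as were H2ac22 and H2bc22 in Sia_lo. H2ac20 and H2bc21, with 238 bases between them on chromosome 3, were called in opposite directions in PD1_hi, H2ac20 higher and H2bc21 lower. Both calls were among those lost without single libraries. H3c7 was higher in both comparisons and its neighbour H2bc9 was not called. H2ac25 was lower in both, next to the uncalled H2bc26-ps. Neither gene was called in H2ac8 with H2bc8 or H2ac6 with H2bc4. H2ac15 was not called and its neighbour H2bc15 was not tested. H2ac11, H2ac22, H2bc22, H2ac20 and H3c7 had 0 counts in PD1_low and could only be higher, so how they compare with a neighbour is no result. Near-identical copies also limit these calls. Of the 46 replication-linked genes, 41 share at least 1 window of 100 bases with another gene and 12 share more than 50% of theirs, so counts of H2ac11 (76.2% of windows shared), H2bc12 (70.8%) and H2ac22 (83.3%) are uncertain, and of H2bc14 (6.59%) and H1f2 (5.07%) less so. How reads with several equal matches were counted was not stated.

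Genes that make and deliver histones were counted from lists. Of 30 S phase genes (MCM helicase subunits, Pcna, Rrm1, Rrm2 and others), 30 were higher in Sia_lo and 30 in PD1_hi than in PD1_low on the TMM scale. On that scale 20.5% of all tested genes were called higher in Sia_lo and 21% in PD1_hi. The median log2 fold changes of the S phase genes were 1.73 and 1.74. With T cell core scaling, 2 were higher and 12 lower in Sia_lo, and 1 higher and 7 lower in PD1_hi. Of all 15292 tested genes, 281 were then higher and 12531 lower in Sia_lo, and 284 higher and 12315 lower in PD1_hi. All 20 genes of G2 and mitosis were higher in both on the TMM scale (medians 1.88 and 1.77). The S phase genes summed to 4110, 4430 and 3960 CPM in Sia_lo, 4430, 4510 and 3920 CPM in PD1_hi and 1410, 1330 and 1330 CPM in PD1_low. Among the S phase genes with the smallest adjusted p, Mcm6, a helicase subunit, averaged 467 ± 33.1, 475 ± 11.9 and 130 ± 4.65 CPM in Sia_lo, PD1_hi and PD1_low, Mcm4, another, 270 ± 5.82, 273 ± 24 and 77.2 ± 2.02 CPM, and Dut, which clears dUTP, 217 ± 13.9, 211 ± 33.1 and 32.6 ± 6.15 CPM (SD, n = 3 each).

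Of 14 genes for transcription and 3′ end processing of histone mRNA, 8 were higher in Sia_lo and 9 in PD1_hi on the TMM scale, with none lower. The shares of all tested genes called on that scale were 20.5% higher and 18.9% lower in Sia_lo and 21% and 19.2% in PD1_hi. Slbp, the stem-loop binding protein, averaged 165 ± 6.57 CPM in Sia_lo, 164 ± 14.3 CPM in PD1_hi and 81.2 ± 7.41 CPM in PD1_low, with log2 fold changes of 1.02 in both (SE 0.12 in Sia_lo, 0.13 in PD1_hi, n = 3 each, edgeR). Upf1, which serves the decay of histone mRNA, averaged 135 ± 7.72, 110 ± 12.3 and 55.9 ± 1.74 CPM, and Cpsf2, a part of the cleavage complex, 114 ± 5.18, 95.9 ± 9.44 and 54.3 ± 0.0866 CPM in the same order. Lsm11, of the U7 particle that pairs with histone pre-mRNA, and Npat, the activator of cluster transcription, were also higher in both. Pou2f1, whose product Oct-1 binds the octamer of H2B promoters, was at 22.4, 21.9 and 23.0 CPM and was not called.

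Of 14 chaperones that serve replication, 12 were higher in Sia_lo and 13 in PD1_hi on the TMM scale, with none lower. Beside them, 20.5% of all tested genes were higher and 18.9% lower in Sia_lo, and 21% and 19.2% in PD1_hi. Chaf1a, a subunit of the CAF-1 complex that places H3 and H4 on new DNA, averaged 69.1 ± 2.26 CPM in Sia_lo, 57.9 ± 9.41 CPM in PD1_hi and 15.0 ± 1.74 CPM in PD1_low (log2 2.20 ± 0.17 SE and 1.95 ± 0.17 SE). Nap1l1, a chaperone of H2A and H2B, averaged 847 ± 43.8, 811 ± 90.2 and 293 ± 21.4 CPM, and Dnajc9, of H3 and H4, 245 ± 20.5, 227 ± 28.3 and 66.2 ± 18.3 CPM. Asf1a was not called in either, while its relative Asf1b was higher in both.

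Of 15 chaperones and loaders of variant histones, 7 were higher and 1 lower in Sia_lo, and 6 were higher in PD1_hi, on the TMM scale. The shares over all tested genes were 20.5% higher and 18.9% lower in Sia_lo and 21% and 19.2% in PD1_hi. Among the listed genes that rose in both were Anp32e, which removes H2A.Z, and Cabin1 of the HIRA complex for H3.3. Hjurp, Mis18a and Oip5, which load the centromere histone CENP-A, rose in both as well. Oip5 averaged 10.5 ± 1.38, 11.7 ± 1.97 and 1.36 ± 0.958 CPM, and Hjurp 206 ± 3.90, 181 ± 38.5 and 87.0 ± 9.96 CPM in Sia_lo, PD1_hi and PD1_low. Daxx, a chaperone of H3.3, was lower in Sia_lo (log2 -0.53 ± 0.16 SE, adjusted p = 0.0184 by edgeR) and not called in PD1_hi. The gene of CENP-A itself, Cenpa, which the name rule leaves out, averaged 378 ± 24.9, 308 ± 26.7 and 94.7 ± 18.4 CPM and was higher in both (log2 2.00 ± 0.15 SE and 1.70 ± 0.15 SE). Macroh2a1 averaged 261, 288 and 327 CPM and was not called. For the 45 genes of these lists together, 0 higher and 39 lower were called in Sia_lo and 1 higher and 37 lower in PD1_hi when libraries were scaled to the T cell core genes. Of all 15292 tested genes, 281 were higher and 12531 lower in Sia_lo on that scale, and 284 higher and 12315 lower in PD1_hi. In Sia_lo against PD1_hi edgeR called 0 of the 45 genes and 0 of the 30 S phase genes, beside 1.4% of all tested genes. At an unadjusted p under 0.05 there were 2 and 1, and DESeq2 called 0 of either, with 2 and 2 at that limit.

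Promoters were read from RefSeq (GRCm38.p6) for the 45 genes with a window, 250 bases before to 50 after the start site. Both strands were searched for ATTTGCAT, the octamer bound by Oct-1 and known from H2B promoters, for CCAAT and for TATAAA, none of which contains another, though neighbouring matches could share bases. Of 27025 genes with a window, 532 (1.97%) held the octamer, 41.1% CCAAT and 15.7% TATAAA. Of 38 replication-linked genes, 9 held the octamer (23.7%), 31 CCAAT (81.6%) and 25 TATAAA (65.8%). The octamer was found in 5 of 9 H2B genes and 4 of 8 H2A genes and in none of 5 H1, 7 H3 and 9 H4 genes. CCAAT was in all 29 windows of H1, H2A, H2B and H3 and in 2 of 9 of H4. Of 7 replacement genes, 1 held the octamer (H3f3b), 5 CCAAT and 1 TATAAA. Of the 9 replication-linked genes with the octamer, 3 were called higher in each comparison with PD1_low, and of the 29 without it 9 in Sia_lo and 8 in PD1_hi. Of all tested genes, 20.5% were called higher in Sia_lo and 21% in PD1_hi. The 3 with the octamer, H2ac20, H2bc12 and H2bc14, met the count rule only through PD-1-positive libraries and so had to differ. Among genes without it, this also held for H1f1, H2ac11, H2ac22, H2bc22, H4c6 and H4c11. These counts are therefore a description only.

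The 2 H2B promoters shown belong to genes that were higher in both PD-1-positive groups with at most 3 counts in PD1_low, and that of H1f2 to the replication-linked gene with the highest length-scaled level, which was lower. Matches are in capitals (CCAAT reads ATTGG, and TATAAA reads TTTATA, where it lies on the other strand). They cover chr13:21721794-21722093, chr13:22035571-22035870 and chr13:23738557-23738856 of GRCm38, all on the plus strand.
H2bc14: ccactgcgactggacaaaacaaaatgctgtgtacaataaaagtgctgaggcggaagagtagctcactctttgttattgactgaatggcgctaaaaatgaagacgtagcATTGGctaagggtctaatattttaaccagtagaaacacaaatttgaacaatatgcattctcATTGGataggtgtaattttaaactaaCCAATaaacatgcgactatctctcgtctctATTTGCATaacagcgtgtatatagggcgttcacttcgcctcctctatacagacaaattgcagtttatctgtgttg
H2bc12: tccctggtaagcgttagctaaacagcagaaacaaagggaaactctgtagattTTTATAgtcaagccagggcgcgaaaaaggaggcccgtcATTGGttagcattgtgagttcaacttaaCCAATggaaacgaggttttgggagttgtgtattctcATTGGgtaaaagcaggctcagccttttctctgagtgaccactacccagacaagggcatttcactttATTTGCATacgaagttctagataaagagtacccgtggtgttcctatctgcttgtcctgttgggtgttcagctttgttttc
H1f2: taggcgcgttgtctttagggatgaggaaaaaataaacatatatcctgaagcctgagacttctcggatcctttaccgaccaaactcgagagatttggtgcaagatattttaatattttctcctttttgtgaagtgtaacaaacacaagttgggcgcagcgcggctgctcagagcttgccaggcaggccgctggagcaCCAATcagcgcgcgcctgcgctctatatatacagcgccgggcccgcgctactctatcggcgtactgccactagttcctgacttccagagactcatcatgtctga
In H2bc14 the octamer begins at position -25 and in H2bc12 at -30 from the start site, and each has 3 CCAAT matches. H2bc12 also has TATAAA, on the other strand at -198. H1f2 has 1 CCAAT match, at -54, and neither of the other motifs. A match is a description of these letters and not a shown binding site.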

How the data were processed

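The deposited table held counts, the whole reads that the authors assigned to genes in 9 libraries. The submitters' processing notes name featureCounts 1.6.3, STAR 2.7.6a, Trim Galore 0.6.5 and the mouse build GRCm38. Gene coordinates in the table differ from that build, with H2bc14 starting at 21906214 of chromosome 13, outside its GRCm38 window (21721794 to 21722093). Gene models were therefore matched by name, or by chromosome, strand and exon length, and promoters by name. All 55 matched models had the exon length given in the table. The strand setting, annotation release and treatment of multiply mapped reads were not given in the sources used here. Antisense and overlapping genes may share counts. No molecular identifiers are described. The interval of the H2bc12 ratio covers counting error only, and all other intervals come from the fit and include the scatter between libraries. Libraries held 9714020 to 15030442 counts.

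All 9 libraries entered 1 fit (edgeR 4.0.16, R 4.3.3) with filterByExpr, TMM and the robust quasi-likelihood F test, called at an adjusted p under 0.05 over 15292 genes. The SE is the size of the log2 fold change divided by the square root of F. The procedure was also run on simulated counts in which few genes differed between groups. The comparisons with PD1_low, where many genes were called, differ from that setting, and nothing is drawn from the simulation here. DESeq2 1.42.0, limma-voom (limma 3.58.1), other scalings and filters, a replicate block and leaving out each library were alternatives. Named were the 3 highest genes of each type per length, every called member, the edges of the count rule and up to 3 called genes per list by smallest adjusted p. Asf1a, Asf1b, Lsm11, Npat, Pou2f1, Cabin1, Mis18a, Daxx, Macroh2a1, H1f3 and H1f10 were named after their values were seen. Members and lists were chosen with earlier results of these data known.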

Additional observations from a re-analysis of the deposited data

How the results depend on the processing

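Of 720 values of called histone genes under alternatives, 599 kept direction and call, 112 kept the direction but not the call, and 9 reversed, all of these under T cell core scaling. There the log2 fold changes were -0.82 for H2ax, -1.42 for H2az1, -0.87 for H2az2 and -0.093 for H1f5 in PD1_hi against PD1_low. In Sia_lo against PD1_low they were -0.90 for H2ax, -1.04 for H2az2, -0.25 for H1f4, -0.37 for H1f5 and -0.19 for H2bc11, all beside shifts of the median of all genes of -1.86 and -1.99 (-0.12 in Sia_lo against PD1_hi). Under the same scaling, S phase genes called numbered 8 in PD1_hi and 14 in Sia_lo against PD1_low. Of all 15292 tested genes, 12315 were then called lower in PD1_hi and 12531 in Sia_lo. Replication-linked genes then summed to 177, 188 and 916 CPM and replacement genes to 1690, 1860 and 7270 CPM in Sia_lo, PD1_hi and PD1_low. This scaling raises PD1_low levels of most genes, since T cell core genes are lowest there. On the TMM scale the same means were 289, 290 and 372 CPM and 2760, 2840 and 2960 CPM.

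With only the 6 libraries compared, 11 histone genes were called in PD1_hi against PD1_low, of 44 tested in place of 55. Leaving out 1 library gave 14 to 21 histone genes called in PD1_hi against PD1_low and 11 to 23 in Sia_lo against PD1_low, the lowest of the second range being 11 without Sia_lo replicate 2 and 13 without Sia_lo replicate 1. It gave 0 in Sia_lo against PD1_hi each time. For histone supply genes the range was 27 to 30 in each comparison with PD1_low, and for S phase genes 30 in PD1_hi and 29 to 30 in Sia_lo. By limma-voom, 9 calls were lost, in Sia_lo those of H1f5, H2bc11, H2bc22 and H3c3 and in PD1_hi those of H2ac20, H2bc11, H2bc22, H3c3 and H4c6. Apart from T cell core scaling, 20 of 41 calls held under every alternative run, among them calls of genes with at most 3 counts in PD1_low, which had to differ.

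Deviations of same-numbered libraries had low correlations (-0.011 to 0.118), beside -0.145 to 0.0642 for libraries of different number. In Sia_lo against PD1_hi the same-numbered pairs (0.0617, 0.118 and 0.101) were above every pair of different number (-0.145 to 0.054). The labels do not say whether a shared number marks paired samples. With the replicate number as a block, 17 histone genes were called in PD1_hi and 22 in Sia_lo against PD1_low, and 0 in Sia_lo against PD1_hi. The block ended the calls of H2ac20, H2bc21, H2bc22, H4c16 and H4c6 in PD1_hi against PD1_low (adjusted p 0.051 to 0.0927, edgeR), where 4 genes in place of 6 were called lower. Depth limits genes near 1 CPM, where 1 read is 0.0671 to 0.0982 CPM.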
